A study of Mus musculus with 75 samples.

Results

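Gene expression in samples labelled as enteric glial cells of the small intestine was compared between mice labelled wild type given LPS and mice labelled wild type given PBS, 24 h after the injection. LPS (lipopolysaccharide) is an endotoxin from the outer membrane of Gram-negative bacteria, here from E. coli O111:B4, and PBS (phosphate-buffered saline) was the vehicle. The comparison used 10 of the 75 samples of the series, 4 with LPS and 6 with PBS, chosen by the labels for genotype, region, treatment and time. LPS was given once into the peritoneum at 2 mg/kg. All 10 mice carried a glial reporter that makes a green fluorescent protein (eGFP), and all were labelled Gpr37WT, for an intact Gpr37 gene; 1 of them held no Gpr37 count, as given below. The product of Gpr37 is a G protein-coupled receptor found on glia, and the knockout mice of the series (Gpr37-/-, with the same reporter) serve below only as a comparison. The LPS mice were numbers 3 and 13 (male) and 8 and 16 (female), and the PBS mice were numbers 14, 23 and 24 (male) and 9, 19 and 22 (female). The labels name the myenteric plexus as the source of the cells, and the mice's age was not given in the sources used here. Each of the 10 libraries came from a different mouse. The spread behind the p-values was estimated over all 37 libraries of the 24 h experiment. Most mice there gave a library of each region, and these were treated as independent.

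Enteric glia are the supporting cells of the nervous system of the gut. In the myenteric plexus, between the muscle layers, they surround the neurons that drive motility, and they resemble astrocytes of the brain in many of their genes. LPS is bound by Lbp and Cd14 and signals through the receptor Tlr4 with Ly96, which leads to NF-kB and to type I interferon, and the cytokines released then act on many other cell types through interferon, IL-1, TNF and IL-6 receptors. Glia that meet such signals are known to take up a reactive state, with changes in intermediate filament, acute-phase and chemokine genes.

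The 10 libraries held 4266678 to 12989108 counts each and 13636 to 14839 genes with at least 1 count. The share of counts from mitochondrially encoded genes was 9.23% ± 6.81 (SD, n = 4) with LPS and 7.02% ± 6.23 (SD, n = 6) with PBS, a difference of 2.21 percentage points (two-sided exact permutation test over 210 assignments, p = 0.581). Without LPS mouse 8 that difference was -0.360. Gpr37 was read in 9 of the 10 libraries: LPS mouse 3, labelled wild type and the shallowest library, held 0 counts, the other 3 LPS libraries held 29 to 124 and the PBS libraries 59 to 158. The colon library of mouse 3 held 2 counts, beside 0 to 23 in the other 4 colon libraries labelled wild type with LPS and 0 to 9 in the knockout libraries of both regions. Below, LPS mouse 3 stands for the library labelled so. At its depth in small intestine a count of 0 allows a level of up to 0.770 CPM (3 counts, counting error only; CPM stands for counts-per-million, scaled between libraries by the TMM method). Markers of other cell types were present in both groups. The summed level of 12 neuronal markers was 2000 to 7630 CPM with LPS and 1523 to 3033 with PBS, next to 1804 to 4339 and 2311 to 9616 for 12 glial markers. That of 8 fibroblast markers was 696 to 10147 and 1967 to 13524, and that of 5 erythroid markers 1150 to 5718 and 535 to 10660. The fibroblast sum was above the glial sum in 7 of the 10 libraries, the neuronal sum in 5 (all 4 with LPS) and the smooth muscle and erythroid sums in 4 each; the sums are not scaled for gene length and depend on the genes in each list. Values below cannot be assigned to glia alone. These bulk samples cannot tell fewer cells of a type from less RNA per cell.

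Genes with a Benjamini-Hochberg adjusted p under 0.05 in edgeR's quasi-likelihood test, over the 14903 tested, are referred to as called. Of these, 1069 (7.17%) were called, 623 (4.18%) higher and 446 (2.99%) lower with LPS. Differences are given as log2 fold changes (log2FC), LPS over PBS, ± the standard error (SE) of the fit. The median over all genes tested was -0.13, and 43.6% of genes had a positive value. Of the called genes, 199 were over 4-fold higher and 205 over 4-fold lower. The CPM values of both groups did not overlap for 2000 genes (13.4% of those tested), and 898 of these were called. The count of called genes was 641 without LPS mouse 3 and 685 without LPS mouse 8. With DESeq2 it was 1875, of which 839 were higher and 1036 lower, so that 44.7% of the calls were higher, against 58.3% with edgeR.

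**Figure D1:**
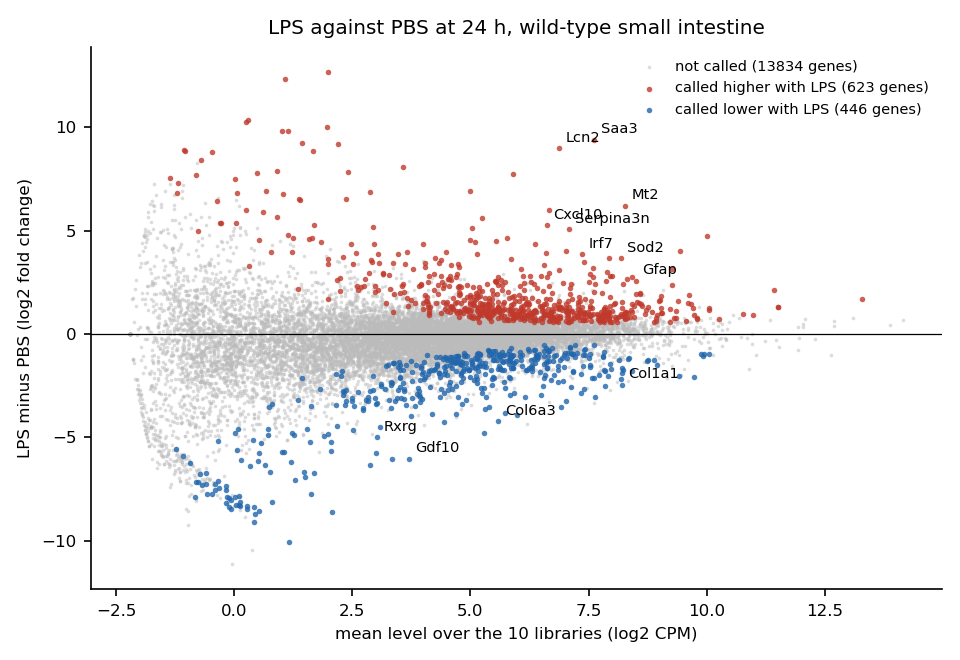
Each point is 1 of the 14903 genes tested; the x axis is the mean log2 CPM over the 10 libraries and the y axis the log2 fold change, LPS over PBS. Coloured points are the 623 genes called higher and the 446 called lower, with the names of 12 genes described in the text.

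Many acute-phase and antimicrobial genes rose. Of 27 such genes tested, 16 were called higher, none lower and 11 were not called, against 4.18% higher among all genes, and the list's median was 4.74 (4.12 with genes at or near 0 in PBS set at their lower bounds). Per-library levels are given in CPM in the order of LPS mice 3, 8, 13 and 16, and for the 6 PBS mice as the range with the median. Lcn2 (chr2:32384637-32387739 in GRCm38.p6), which encodes the siderophore-binding protein lipocalin-2, was at 7677, 2245, 8441 and 7078 with LPS and at 0.721 to 23.8 with a median of 12.8 with PBS. The lowest LPS library, mouse 8, lay far above every PBS library. The log2FC was 9.00 ± 1.12, with an edgeR adjusted p of 2.51e-06.

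Saa3 (chr7:46711998-46719615), a serum amyloid A gene expressed outside the liver, was at 11903, 4311, 26644 and 14531 with LPS and 4.65 to 77.1 with a median of 11 with PBS (log2FC 9.41 ± 1.61, edgeR adjusted p = 0.00022). LPS mouse 13 held the most and mouse 8 the least, and both lay far above every PBS library. The protease inhibitor gene Serpina3n, known as a marker of reactive astrocytes, was at 1129, 827, 1751 and 1216 against 21.6 to 80.8 with a median of 25.2 (log2FC 5.09 ± 0.55, edgeR adjusted p = 3.36e-07). Ceruloplasmin (Cp), a copper-carrying ferroxidase, was at 461, 254, 979 and 442 against 20.6 to 35 with a median of 25.5 (log2FC 4.36 ± 0.48, edgeR adjusted p = 4.5e-07). For both, every LPS library lay several-fold above every PBS library. Serpina3f, Serpina3m and Serpina3i were called higher too, while Serpina3g overlapped and was not called (log2FC 2.79 ± 1.15, edgeR adjusted p = 0.145). Serpina3f held 9375 counts over the LPS libraries and 2 over the PBS libraries, a ratio of 9393 with a 95% counting interval of 2600 to 77573. These genes have near-identical copies, and how shared reads were counted is not given in the sources used here.

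The metallothioneins Mt1 and Mt2, small proteins that bind zinc and copper, were among the genes with the smallest p. Mt2 was at 4822, 4136, 3268 and 4764 with LPS and 31.4 to 90.4 with a median of 54.8 with PBS (log2FC 6.22 ± 0.67, edgeR adjusted p = 3.36e-07), and Mt1 at 9156, 8181, 5675 and 7924 against 142 to 488 with a median of 251 (log2FC 4.74 ± 0.48, edgeR adjusted p = 1.15e-07). The 4 LPS libraries lay close together for both. The zinc importer gene Slc39a14 was higher too (log2FC 3.42 ± 0.63, edgeR adjusted p = 0.000576). Ptx3, a long pentraxin that opsonises microbes, was at 768, 118, 2023 and 1689 against 0 to 30.2 with a median of 3.81, with no overlap (log2FC 6.93 ± 1.40, edgeR adjusted p = 0.00148). Haptoglobin (Hp), which binds free haemoglobin, was at 193, 77.4, 1824 and 293 against 0.561 to 60.3 with a median of 7.96 (log2FC 5.14 ± 1.31, edgeR adjusted p = 0.0128). Mouse 13 held by far the most, and Hp was not called without LPS mouse 13, with a log2FC of 3.51 and an edgeR adjusted p of 0.0807. Among the 11 acute-phase list members not called, Saa1 (log2FC 4.12 ± 1.87, edgeR adjusted p = 0.189), Lrg1 (log2FC 2.58 ± 1.00, edgeR adjusted p = 0.116), Steap4 (log2FC 1.89 ± 0.71, edgeR adjusted p = 0.106) and Pglyrp1 (log2FC 1.86 ± 1.07, edgeR adjusted p = 0.324) had separate groups, and Itih4 and Fga held 0 counts in all 10 libraries. Of iron-handling genes, 3 of 15 tested were called, all higher: Hp, Cp and the ferritin heavy chain gene Fth1 (log2FC 1.69 ± 0.35, edgeR adjusted p = 0.00222).

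**Figure D2:**
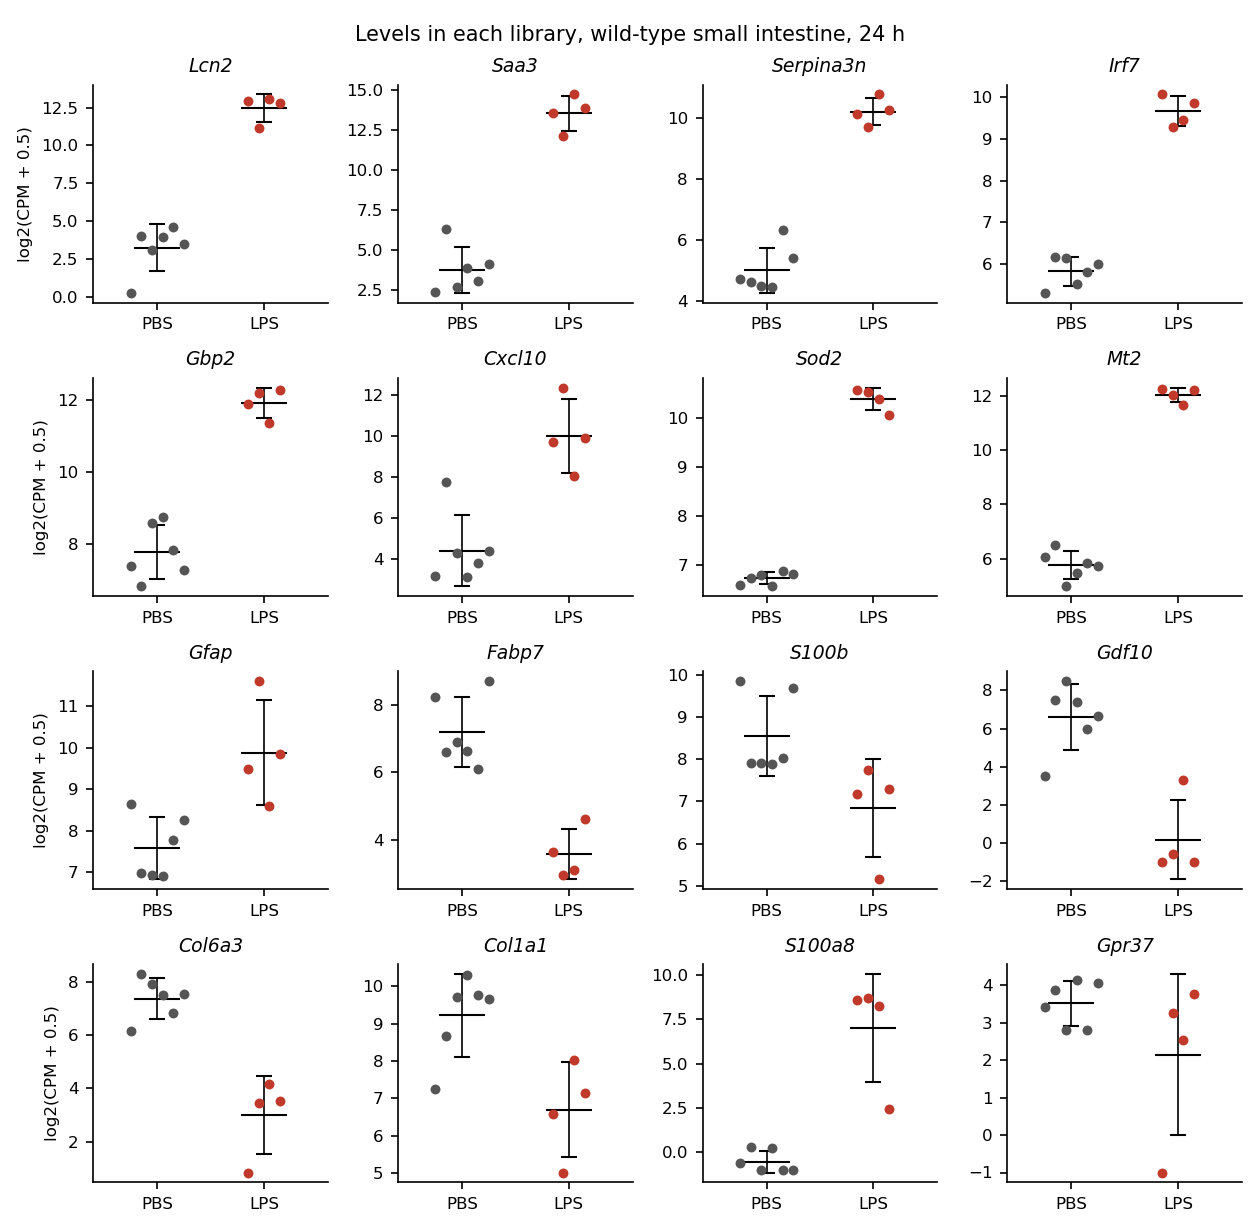
Levels of 16 genes in each library as log2(CPM + 0.5), with LPS and PBS libraries as points and the bar and whiskers as the mean ± SD of the group. Lcn2, Saa3, Serpina3n, Irf7, Gbp2, Sod2 and Mt2 show separate groups with LPS above, Fabp7, S100b, Gdf10 and Col6a3 separate groups with LPS below, and Gfap and Gpr37 overlapping groups.

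Chemokine genes, whose products attract leukocytes, had called members in each of 4 lists, all of them higher. The 2 interferon-induced CXC chemokines tested, Cxcl9 and Cxcl10, which attract T cells and NK cells through Cxcr3, were both called higher. Cxcl9 was at 417, 186, 499 and 1407 with LPS and 0 to 25.2 with a median of 13 with PBS (log2FC 5.62 ± 1.37, edgeR adjusted p = 0.00889). Cxcl10 was at 825, 5281, 261 and 971 against 8.01 to 218 with a median of 16 (log2FC 5.26 ± 1.07, edgeR adjusted p = 0.00157). PBS mouse 14 stood apart from the other PBS mice for Cxcl10, at 218 against 8.01 to 20.0, and still lay below the lowest LPS library. Among 16 CC chemokines, 4 were called higher (Ccl5, Ccl2, Ccl17 and Ccl19), and the list's median was 0.94; Ccl17 was not called without LPS mouse 3 (edgeR adjusted p = 0.0507). Ccl5 was at 2104, 2947, 805 and 1362 against 2.83 to 24.2 with a median of 5.61 (log2FC 7.73 ± 1.20, edgeR adjusted p = 6.1e-05), and Ccl2, which attracts monocytes, at 1519.7, 2826, 835 and 1171 against 3.39 to 64 with a median of 17.6 (log2FC 5.99 ± 0.78, edgeR adjusted p = 5.72e-06). Groups were separate for both. Ccl7, a neighbour of Ccl2 in function, was at 32.7 to 364 and 5.61 to 143 with a median of 27 and was not called (log2FC 1.86 ± 0.86, edgeR adjusted p = 0.198). Of 6 other CXC-type chemokines only Cxcl13, which attracts B cells, was called, at 67.2, 86.9, 257 and 374 against 0 to 6.65 with a median of 0.892 (log2FC 6.89 ± 1.53, edgeR adjusted p = 0.00394).

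Of 6 neutrophil-attracting chemokines, 3 were called higher, with a median of 2.91. Cxcl5 was at 262, 20.2, 486 and 107 with LPS and at 0 to 3.1 with a median of 0.283 with PBS, where 3 of the 6 libraries held none (log2FC 7.85 ± 1.54, edgeR adjusted p = 0.00112). Cxcl1 was at 482, 513, 1077 and 696 against 2.24 to 288 with a median of 21.8, with PBS mouse 14 the highest of its group (log2FC 3.35 ± 0.94, edgeR adjusted p = 0.0253). Cxcl1 was not called without LPS mouse 13 or PBS mice 19, 22 or 24, with log2FC of 3.09 to 3.18 and edgeR adjusted p of 0.0515 to 0.0558. Cxcl2 had separate groups (179 to 240.1 against 0.679 to 51.2 with a median of 3.06) but was called in only 1 of the 10 fits that left out 1 library each (log2FC 3.96 ± 1.23 with all, edgeR adjusted p = 0.0427; not called without LPS mice 3, 8, 13 or 16 or PBS mice 9, 19, 22, 23 or 24, with log2FC of 3.72 to 4.17 and edgeR adjusted p of 0.0547 to 0.0844). The colony-stimulating factor gene Csf3, which drives neutrophil production, was at 335, 72.7, 434 and 302 against 0 in 5 PBS libraries and 2.59 in PBS mouse 14 (log2FC 9.22 ± 1.80, edgeR adjusted p = 0.00142).

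Neutrophil transcripts were themselves present with LPS. S100a8, a calcium-binding protein abundant in neutrophils, was at 393, 423, 302 and 4.97 with LPS and 0 to 0.714 with a median of 0.0801 with PBS (log2FC 10.02 ± 2.04, edgeR adjusted p = 0.00165). LPS mouse 16 was about as low as a PBS library on the summed level of 13 neutrophil markers, at 21.8 CPM, while the other 3 LPS libraries held 760 to 898 and the PBS libraries 2.26 to 25.0. Of 11 neutrophil markers tested, 5 were called higher (S100a8, S100a9, Retnlg, Ngp and Mmp8), 3 without PBS mouse 9. Ngp was not called without PBS mouse 9 (edgeR adjusted p = 0.0552), and Mmp8 not without LPS mice 3, 8 or 13 or PBS mice 9, 14, 19, 22 or 24 (edgeR adjusted p = 0.0534 to 0.109). The summed level of 6 monocyte markers was 271 to 733 CPM with LPS and 56.4 to 231 with PBS, and only Ly6c2 of the 6 was called, which was lost without LPS mice 3, 8 or 13 or PBS mice 9, 19, 22, 23 or 24 (edgeR adjusted p = 0.0531 to 0.144). The part of these cells in the chemokine, acute-phase and interferon results was not tested. LPS mouse 16, with the fewest neutrophil transcripts of the LPS libraries, held 425 CPM on the monocyte sum, above LPS mice 3 and 8. Plac8, which was not called, gave 407 of these 425 CPM. Ly6c2 was at 1.16 in LPS mouse 16, within the PBS range of 0.160 to 3.57, and at 8.94 to 42.7 in the other LPS libraries.

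**Figure D3:**
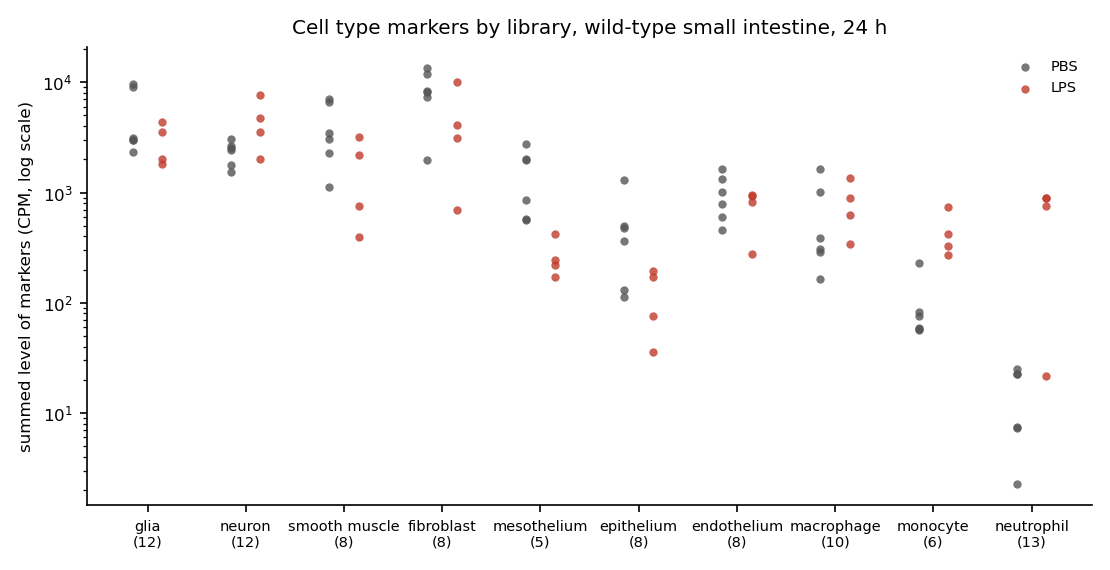
Summed CPM of the marker genes of each cell type in each library, on a log axis, with LPS and PBS libraries as points. Neutrophil markers were at 760 to 898 in 3 LPS libraries and at 21.8 in LPS mouse 16, and mesothelial markers were lower in every LPS library (173 to 419) than in any PBS library (567 to 2766).

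Macrophage markers as a list did not share that direction, with 0 of 10 called higher and 1 called lower. That gene, Cx3cr1, encodes the fractalkine receptor and marks resident macrophages. It was at 0, 0.182, 0 and 0.212 with LPS and at 73.5, 51.5, 24.1, 14.8, 9.09 and 0.562 in PBS mice 9, 14, 19, 22, 23 and 24 (log2FC -7.72 ± 1.81, edgeR adjusted p = 0.00658). Its 4 LPS libraries held 4 counts in all, and PBS mouse 24 was low as well. The macrophage marker sum overlapped between groups (345 to 1348 with LPS, 163 to 1645 with PBS).

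Of the 62 gene lists, interferon-stimulated genes held the most calls: 28 of 48 tested were higher, none lower, and the median was 1.83. Irf7 (chr7:141263183-141266499), the transcription factor that amplifies type I interferon production, had the smallest p of all genes tested. It was at 1075, 629, 701 and 939 with LPS and 39 to 71.4 with a median of 59.2 with PBS (log2FC 3.86 ± 0.34, edgeR adjusted p = 1.24e-08). The lowest LPS library was several-fold above the highest PBS library. Rsad2 (viperin, an antiviral enzyme) was at 460.2, 1324, 301 and 896 against 31.7 to 69.9 with a median of 42.4 (log2FC 4.00 ± 0.59, edgeR adjusted p = 3.08e-05). Ifit1, which binds foreign RNA, was at 289, 989.7, 352 and 583 against 72.6 to 117 with a median of 98.3 (log2FC 2.54 ± 0.41, edgeR adjusted p = 0.000103). LPS mouse 8 was the highest library for both. Samhd1, which hydrolyses dNTPs, was at 234, 224, 166 and 305 against 13.7 to 45.9 with a median of 33.5 (log2FC 2.79 ± 0.31, edgeR adjusted p = 4.5e-07). The regulator gene Irf1 had overlapping groups and did not pass the test (log2FC 0.44 ± 0.38, edgeR adjusted p = 0.551). Stat2 was called higher (log2FC 1.28 ± 0.40, edgeR adjusted p = 0.0457) but not without LPS mice 8, 13 or 16 or PBS mice 9, 14, 23 or 24 (edgeR adjusted p = 0.0595 to 0.14). Oasl1, of the oligoadenylate synthetase family (log2FC 3.14 ± 0.83, edgeR adjusted p = 0.0169), and the membrane protein gene Ifitm1, which restricts virus entry (log2FC 3.10 ± 0.79, edgeR adjusted p = 0.0128), were also among the largest increases in the list, though Oasl1 was not called without LPS mouse 8 (edgeR adjusted p = 0.0766).

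Guanylate-binding proteins and immunity-related GTPases, which act on the membranes of intracellular pathogens, had 12 of 17 tested members called higher and none lower, with a median of 2.40. Gbp2 was at 3766, 4654, 2602 and 4922 with LPS and 113 to 426 with a median of 196 with PBS (log2FC 4.03 ± 0.49, edgeR adjusted p = 1.82e-06), and Gbp6 at 510.5, 799, 366 and 643 against 5.18 to 63.1 with a median of 35.8 (log2FC 3.94 ± 0.56, edgeR adjusted p = 1.62e-05). Every LPS library lay above every PBS library for both. Gbp5 (log2FC 3.68 ± 0.69, edgeR adjusted p = 0.000646) and Gbp4 (log2FC 3.63 ± 0.51, edgeR adjusted p = 1.58e-05) had separate groups as well. Irgm1, a regulator of these GTPases, was also higher (log2FC 2.79 ± 0.36, edgeR adjusted p = 5.12e-06).

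Many genes of antigen presentation on MHC class I rose, and those of class II did not pass the test. Of 23 class I and peptide-loading genes, 15 were called higher, none lower and 8 were not called (median 1.30), with 11 to 15 called when 1 library was left out. Tap1, which carries peptides into the endoplasmic reticulum, was at 877, 1118, 445 and 576 against 55 to 113 with a median of 80.1 (log2FC 3.20 ± 0.39, edgeR adjusted p = 1.73e-06), and the non-classical class I gene H2-T23 at 349.9, 212, 319 and 527 against 40.8 to 54.4 with a median of 43.7 (log2FC 2.96 ± 0.37, edgeR adjusted p = 2.51e-06). Both had separate groups. B2m, the light chain shared by class I molecules, was at 4387, 4365, 4634 and 7254 against 1399.5 to 3154 with a median of 1982 (log2FC 1.29 ± 0.35, edgeR adjusted p = 0.0192), and was not called without LPS mouse 16, with a log2FC of 1.08 and an edgeR adjusted p of 0.091. H2-Q6 (log2FC 2.77 ± 0.52, edgeR adjusted p = 0.00071) and H2-Q7 (log2FC 2.22 ± 0.53, edgeR adjusted p = 0.00841) had separate groups. H2 genes resemble each other closely, so their single values are uncertain. Of 11 class II genes, 0 were called (median 0.57).

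Many proteasome genes rose by small amounts. All 31 core and regulatory subunits tested had a positive log2 fold change, and 19 were called higher and 12 were not called, with 14 to 22 called when 1 library was left out. Their median was 0.79. Psmd3, a lid subunit of the 19S regulator, was at 459.7, 266, 323 and 263 with LPS and 91.5 to 156 with a median of 134 with PBS (log2FC 1.35 ± 0.23, edgeR adjusted p = 0.000247). The core subunit genes Psmb3 (log2FC 1.25 ± 0.21, edgeR adjusted p = 0.000199) and Psma6 (log2FC 1.25 ± 0.20, edgeR adjusted p = 9.11e-05) and the regulator subunit gene Psmd8 (log2FC 1.10 ± 0.21, edgeR adjusted p = 0.00071) had separate groups. Psmb8, a catalytic subunit of the interferon-inducible immunoproteasome, was at 969, 1016, 449.7 and 1065 against 219 to 241 with a median of 229 (log2FC 1.93 ± 0.34, edgeR adjusted p = 0.000378), while Psmb9, another such subunit, overlapped (log2FC 0.44 ± 0.36, edgeR adjusted p = 0.529). Ubd, a ubiquitin-like modifier induced by interferon-gamma and TNF that targets proteins to the proteasome, was at 546, 127, 214 and 589 against 0.141 to 2.06 with a median of 1.49 (log2FC 8.10 ± 1.15, edgeR adjusted p = 1.72e-05).

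Promoters of the called genes were searched for sequence motifs known to bind the factors of these pathways. RefSeq promoter windows of GRCm38.p6 were found for 11631 of the 14903 genes tested, 486 of the 623 called higher and 351 of the 446 called lower. The 250 bases before each listed start were read on both strands for 4 motifs; a gene with several starts counted as holding a motif if any of its windows did. There were 1.28 windows per gene among genes called higher and among all, and 1.30 among those called lower. The interferon-stimulated response element (GAAANNGAAA, bound by IRF and STAT complexes) was held by 8.64% of the promoters of genes called higher (42 genes), 3.42% of those called lower and 3.39% of all. For the gamma-activated site (TTCNNNGAA, bound by STAT dimers) the shares were 8.85%, 4.56% and 7.22%, and for the NF-kB consensus 14.8%, 8.55% and 11.0%. The C/EBP motif TTGCNNAA was in 11.1%, 12.0% and 9.38%. A response element and a gamma-activated site occurred together in 54 promoters, sharing bases in 12 of them. Printed first are the 4 genes called higher with the smallest p that held a response element or a gamma-activated site, and all 4 held the latter. They are Sod2 at chr17:13007589-13007838 (plus strand), Sphk1 at chr11:116531587-116531836 (plus strand), Samhd1 at chr2:157135097-157135346 (minus strand) and Tnip1 at chr11:54962941-54963190 (minus strand), each read 5′ to 3′ on the gene's strand with the response elements and gamma-activated sites in capitals. The window of Sphk1 lies before the second of its 5 listed starts, 737 bases downstream of the first and inside the gene's span; each of the other 7 genes printed has 1 listed start.
Sod2: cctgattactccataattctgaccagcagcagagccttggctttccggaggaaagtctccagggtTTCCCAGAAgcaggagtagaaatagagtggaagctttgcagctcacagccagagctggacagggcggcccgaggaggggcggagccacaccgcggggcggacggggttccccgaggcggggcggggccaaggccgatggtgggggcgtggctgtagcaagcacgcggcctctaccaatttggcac
Sphk1: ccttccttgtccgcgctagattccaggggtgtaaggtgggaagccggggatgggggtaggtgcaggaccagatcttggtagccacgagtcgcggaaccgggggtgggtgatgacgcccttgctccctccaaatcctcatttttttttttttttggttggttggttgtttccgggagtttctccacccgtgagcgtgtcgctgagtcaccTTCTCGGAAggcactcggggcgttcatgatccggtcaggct
Samhd1: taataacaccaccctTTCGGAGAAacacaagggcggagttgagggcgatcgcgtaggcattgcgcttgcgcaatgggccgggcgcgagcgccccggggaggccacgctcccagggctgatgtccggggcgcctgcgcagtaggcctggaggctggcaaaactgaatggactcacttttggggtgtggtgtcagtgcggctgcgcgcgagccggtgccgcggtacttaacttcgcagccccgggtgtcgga
Tnip1: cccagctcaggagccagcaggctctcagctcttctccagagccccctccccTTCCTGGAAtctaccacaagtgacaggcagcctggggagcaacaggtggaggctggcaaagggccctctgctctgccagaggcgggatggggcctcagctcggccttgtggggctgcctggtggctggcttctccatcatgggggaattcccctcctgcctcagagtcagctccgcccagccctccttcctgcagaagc
Response elements were more frequent among genes called higher, so 4 promoters that held one were added after these shares were seen, again by smallest p, to show what the element looks like in members of the interferon and antigen-presentation lists. They are Gbp2 at chr3:142620413-142620662 (plus strand), H2-T23 at chr17:36032702-36032951 (minus strand), Irgm1 at chr11:48871421-48871670 (minus strand) and Bst2 at chr8:71537473-71537722 (minus strand), with the element in capitals on either strand.
Gbp2: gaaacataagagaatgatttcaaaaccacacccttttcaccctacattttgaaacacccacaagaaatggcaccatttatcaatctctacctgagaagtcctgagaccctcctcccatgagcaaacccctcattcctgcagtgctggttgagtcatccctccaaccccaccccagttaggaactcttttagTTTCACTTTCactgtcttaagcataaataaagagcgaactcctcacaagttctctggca
H2-T23: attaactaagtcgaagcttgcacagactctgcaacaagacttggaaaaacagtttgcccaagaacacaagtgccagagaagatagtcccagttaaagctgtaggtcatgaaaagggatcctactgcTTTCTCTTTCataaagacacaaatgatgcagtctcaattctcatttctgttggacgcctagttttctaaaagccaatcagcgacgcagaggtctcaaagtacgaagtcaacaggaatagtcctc
Irgm1: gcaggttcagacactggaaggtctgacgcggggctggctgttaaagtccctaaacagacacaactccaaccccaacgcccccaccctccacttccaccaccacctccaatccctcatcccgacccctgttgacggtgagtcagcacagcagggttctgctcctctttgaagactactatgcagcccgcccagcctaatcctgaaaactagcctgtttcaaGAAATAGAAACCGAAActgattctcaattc
Bst2: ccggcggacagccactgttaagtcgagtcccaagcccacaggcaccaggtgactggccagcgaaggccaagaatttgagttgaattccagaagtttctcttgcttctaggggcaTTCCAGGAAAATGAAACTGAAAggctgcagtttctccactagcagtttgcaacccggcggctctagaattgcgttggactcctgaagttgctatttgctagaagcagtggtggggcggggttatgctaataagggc
In Irgm1 and in Bst2 the capitals span 2 overlapping response elements, and in Bst2 they also cover a gamma-activated site that shares bases with them. Bst2 encodes tetherin, which holds budding viruses at the cell surface, and was at 712, 479.9, 244 and 656 with LPS and 111 to 185 with a median of 121 with PBS (log2FC 1.97 ± 0.26, edgeR adjusted p = 6.53e-06). Not marked in capitals, the windows of Sod2, Tnip1 and Bst2 also held the NF-kB consensus and those of Samhd1 and H2-T23 the C/EBP motif. The window of Irf7 held none of the 4 motifs, which says only that these letters are not in it. Matches describe the sequence and are not evidence of binding.

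Genes that sense LPS and relay its signal changed in part. Of 16 tested, 6 were called higher and none lower, with a median of 0.74. The co-receptor gene Cd14 was at 76.2, 114, 71.4 and 59.7 with LPS and 2.62 to 30.7 with a median of 7.41 with PBS (log2FC 2.82 ± 0.64, edgeR adjusted p = 0.00466), and Lbp, whose product hands LPS to Cd14, at 105, 35.5, 106 and 109.7 against 13.6 to 24.6 with a median of 17.3 (log2FC 2.28 ± 0.45, edgeR adjusted p = 0.00119). Irak3, an inhibitor of Toll-like receptor signalling, was at 153, 52.4, 145 and 77.2 against 3.22 to 21.3 with a median of 9.69 (log2FC 3.34 ± 0.45, edgeR adjusted p = 9.81e-06). All 3 genes had separate groups. The adaptor gene Traf6 was called higher (log2FC 2.36 ± 0.56, edgeR adjusted p = 0.00775) but not without LPS mouse 3 (edgeR adjusted p = 0.0952). The receptor gene Tlr4 itself overlapped, at 2.57, 11, 29.2 and 19 against 5.77 to 19.8 with a median of 13.3 (log2FC 0.25 ± 0.50, edgeR adjusted p = 0.832), as did its partner Ly96 (log2FC 0.29). Tlr2, a receptor for bacterial lipoproteins, was higher (64.4 to 143 against 8.66 to 49.7 with a median of 19.8, log2FC 2.10 ± 0.54, edgeR adjusted p = 0.0145) but was not called without LPS mouse 8, with a log2FC of 1.88 and an edgeR adjusted p of 0.0562.

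Among NF-kB subunits and inhibitors, 8 of 17 were called higher and none lower, with a median of 1.48, and several of the called genes encode inhibitors. Nfkbia (I-kappa-B-alpha, which holds NF-kB in the cytoplasm) was at 1964, 1849, 1482 and 1983 with LPS and 167 to 843 with a median of 284 with PBS (log2FC 2.36 ± 0.36, edgeR adjusted p = 4.37e-05). Tnfaip3 (A20, a ubiquitin-editing inhibitor) was at 53.4, 40.6, 113 and 82.4 against 0.481 to 25 with a median of 4 (log2FC 3.39 ± 0.91, edgeR adjusted p = 0.0177), and its partner Tnip1 at 211, 119.6, 138 and 146 against 18 to 36.5 with a median of 23.4 (log2FC 2.63 ± 0.30, edgeR adjusted p = 4.86e-07). Groups were separate in each case. The ubiquitin ligase gene Birc3 (log2FC 2.89 ± 0.48, edgeR adjusted p = 0.000165) and Nfkbie, another inhibitor of NF-kB (log2FC 2.53 ± 0.69, edgeR adjusted p = 0.0201), were higher too, Nfkbie not without LPS mouse 3 (edgeR adjusted p = 0.0646).

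Cytokine genes passed the test in part. In the IL-1 family 4 of 13 were called higher: the decoys and inhibitors Il1rn (log2FC 6.49 ± 1.73, edgeR adjusted p = 0.0175), Il1r2 (log2FC 5.65 ± 1.54, edgeR adjusted p = 0.0203) and Il18bp, and the inflammatory caspase gene Casp4. Il18bp was not called without LPS mice 3, 8, 13 or 16 or PBS mice 9, 14, 23 or 24 (edgeR adjusted p = 0.055 to 0.132). Il1rn was at 117, 173, 55.7 and 1.06 with LPS, so that mouse 16 overlapped with the PBS range of 0 to 4.64 with a median of 0. Among IL-6 family, colony-stimulating factor and SOCS genes 5 of 23 were called higher and none lower, with a median of 1.36 (0.93 with genes at or near 0 in PBS set at their bounds), and 3 were called without LPS mouse 8, PBS mouse 9 or PBS mouse 24. The macrophage growth factor gene Csf1 was higher (log2FC 1.73 ± 0.40, edgeR adjusted p = 0.00619). Bcl3, a nuclear I-kappa-B protein (log2FC 1.64 ± 0.47, edgeR adjusted p = 0.0267), was not called without LPS mouse 8 or PBS mice 9 or 24 (edgeR adjusted p = 0.0541 to 0.0762), nor the feedback inhibitor gene Socs2 (log2FC 1.46 ± 0.40, edgeR adjusted p = 0.0218) without LPS mouse 8 or PBS mice 9 or 24 (edgeR adjusted p = 0.053 to 0.11). Stat3, the transcription factor downstream of IL-6, was at 465, 729, 418 and 343 against 147 to 221 with a median of 180.3 (log2FC 1.44 ± 0.19, edgeR adjusted p = 8.12e-06). Il6 overlapped at 4.62, 4.83, 74.4 and 20.5 against 0 to 34.9 with a median of 1.9 (log2FC 1.46 ± 1.26, edgeR adjusted p = 0.552), and the feedback inhibitor Socs3 was not called either (log2FC 0.59 ± 0.59, edgeR adjusted p = 0.618). In the TNF family 2 of 16 were called higher, Tnfaip2 and the receptor gene Tnfrsf1a. Leukocyte adhesion molecules Icam1 (742, 1136, 714 and 628 against 26.4 to 148 with a median of 55.9, log2FC 3.51 ± 0.48, edgeR adjusted p = 1.05e-05) and Vcam1 (693, 1386, 523 and 836 against 88.5 to 158 with a median of 127, log2FC 2.82 ± 0.41, edgeR adjusted p = 2.33e-05) were the 2 called of 13 in their list. Both had separate groups. Complement genes gave 0 calls of 20 in either direction (median 0.00), and C3 had overlapping groups (log2FC -0.49).

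**Figure D4:**
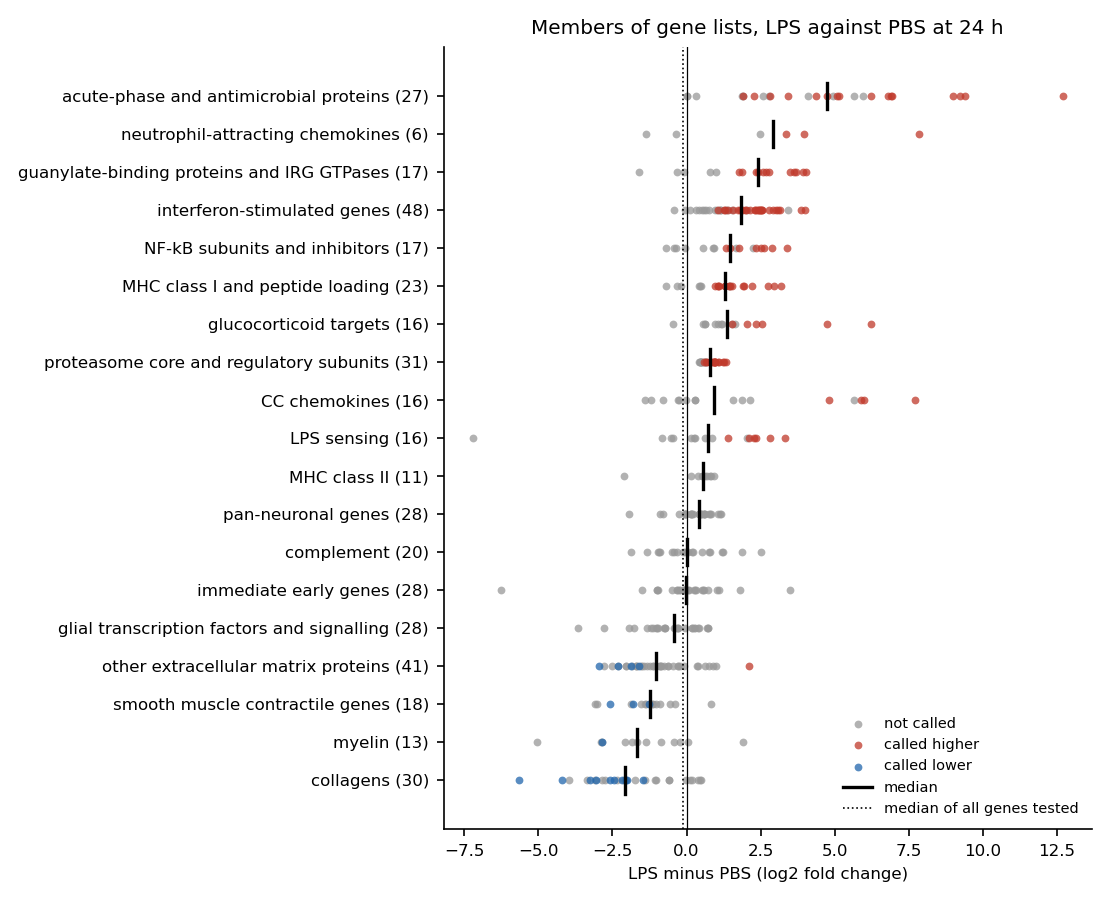
Log2 fold change, LPS over PBS, of each tested gene in 19 lists, with filled points for called genes and a bar at the list's median; fitted values are shown also for genes at or near 0 in PBS. Acute-phase genes have a median of 4.74 and interferon-stimulated genes 1.83, proteasome subunits lie close together around 0.79, and collagens have a median of -2.06.

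Enzymes of the immune metabolism of redox and itaconate gave 5 calls of 23, all higher. Sod2, the superoxide dismutase of mitochondria, was at 1522, 1464, 1330.2 and 1065 with LPS and 94.7 to 117 with a median of 108 with PBS (log2FC 3.67 ± 0.34, edgeR adjusted p = 2.02e-08), with little spread in either group. Acod1, which makes itaconate from a citric acid cycle intermediate, was at 88.2, 129.6, 92.3 and 111 against 0 to 1.07 with a median of 0 (log2FC 8.86 ± 1.36, edgeR adjusted p = 8.44e-05). Hif1a, a transcription factor of the hypoxia response, was higher (log2FC 1.70 ± 0.34, edgeR adjusted p = 0.00143), and the inducible nitric oxide synthase gene Nos2 overlapped at 9.24, 1.46, 10.5 and 3.7 against 0.187 to 8.62 with a median of 2.97 (log2FC 0.72 ± 1.19, edgeR adjusted p = 0.789). The thioredoxin reductase gene Txnrd1 was called higher (log2FC 1.05 ± 0.33, edgeR adjusted p = 0.0429) but not without LPS mice 3, 8, 13 or 16 or PBS mice 9, 19, 22 or 24 (edgeR adjusted p = 0.0515 to 0.112). Sphk1, which makes sphingosine-1-phosphate, was at 126, 152, 255 and 193 against 7.21 to 18.6 with a median of 11.8 (log2FC 3.86 ± 0.43, edgeR adjusted p = 4.5e-07). Of 16 glucocorticoid target genes 6 were called higher, among them Fkbp5, which encodes a co-chaperone of the glucocorticoid receptor (67.5, 141, 176 and 189 against 9.37 to 43.2 with a median of 23.5, log2FC 2.56 ± 0.45, edgeR adjusted p = 0.000338), and the cell cycle inhibitor gene Cdkn1a (973, 717, 554 and 715 against 125 to 424 with a median of 246, log2FC 1.53 ± 0.28, edgeR adjusted p = 0.000576). Mt1, Mt2 and Nfkbia belong to this list and to others above. Prostaglandin and lipid mediator genes (0 of 13), cholesterol synthesis genes (0 of 23) and immediate early genes (0 of 28) gave no call.

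Calls in other housekeeping programmes differed from list to list, beside 4.18% higher and 2.99% lower among all genes. Of 24 glycolysis and glucose uptake genes 2 were called higher, among them Pfkfb3, whose product activates glycolysis (log2FC 2.33 ± 0.45, edgeR adjusted p = 0.000897), and 1 lower, Pfkl (log2FC -1.01 ± 0.32, edgeR adjusted p = 0.048). Pfkl was not called without LPS mice 3, 13 or 16 or PBS mice 9, 14, 19, 22 or 23 (edgeR adjusted p = 0.0649 to 0.162). Pdk4, which restrains pyruvate oxidation, was called higher (log2FC 2.04 ± 0.64, edgeR adjusted p = 0.0453) but not without LPS mice 3, 8, 13 or 16 or PBS mice 14, 22, 23 or 24 (edgeR adjusted p = 0.0538 to 0.116). Of 32 nuclear genes of the respiratory chain 1, Ndufs3, was called higher (log2FC 1.11 ± 0.24, edgeR adjusted p = 0.00336), and of 8 mitochondrially encoded genes 0 (median 0.58). Amino acid and metal carriers had 4 of 16 called higher, among them the peptide and histidine carrier gene Slc15a3 (log2FC 2.61 ± 0.43, edgeR adjusted p = 0.000148) and the partners Slc7a5 and Slc3a2; Slc7a5 was not called without LPS mice 8, 13 or 16 or PBS mice 9, 19, 22 or 24 (edgeR adjusted p = 0.0504 to 0.147). In the unfolded protein response the transcription factor gene Atf4 was called higher (log2FC 0.86 ± 0.25, edgeR adjusted p = 0.0286) and the endoplasmic reticulum folding genes Sdf2l1, Pdia6 and Pdia4 lower, with 17 of 21 not called. Of these, Atf4 was not called without LPS mouse 16 or PBS mice 9 or 19 (edgeR adjusted p = 0.0509 to 0.098), Sdf2l1 not without LPS mice 3, 8 or 16 or PBS mouse 14 (edgeR adjusted p = 0.0505 to 0.091), Pdia6 not without LPS mice 3, 8 or 16 or PBS mice 14, 19, 22 or 24 (edgeR adjusted p = 0.053 to 0.13) and Pdia4 not without LPS mice 3, 8 or 16 or PBS mice 14, 19, 22 or 23 (edgeR adjusted p = 0.0647 to 0.158). Of 30 cell proliferation genes, only Cdkn1a was called higher and Ccnd2 lower. The clock gene Cry1 was the 1 called of 19 clock genes (log2FC 1.52 ± 0.39, edgeR adjusted p = 0.015), but not without LPS mouse 3 (edgeR adjusted p = 0.0552).

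Of 12 glial markers, 1 was called higher (Gfap), 1 lower (Fabp7) and 10 were not called. Among all genes 4.18% were called higher and 2.99% lower, so 1 call in each direction says little about the list. The list's median was -1.16 beside -0.13 for all genes. Gfap (chr11:102887336-102897200), the intermediate filament protein that rises in reactive astrocytes, was at 719, 3134, 384 and 915 with LPS and 119.6 to 397 with a median of 172 with PBS (log2FC 2.58 ± 0.63, edgeR adjusted p = 0.00928). LPS mouse 8 was far above the others, the lowest LPS library fell below the highest PBS library, and Gfap was not called without LPS mouse 8, with a log2FC of 1.65 and an edgeR adjusted p of 0.133. Fabp7 (chr10:57784923-57788450), a lipid-binding protein of glial progenitors and of enteric glia, was at 12.1, 7.2, 8.14 and 23.9 against 67.9 to 421 with a median of 109, so that every LPS library lay below every PBS library (log2FC -3.84 ± 0.95, edgeR adjusted p = 0.00978).

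S100b, a calcium-binding protein used to identify enteric glia, was at 143, 215, 35.1 and 156 with LPS and 237 to 922 with a median of 251 with PBS. Its groups did not overlap, yet it was not called (log2FC -1.72 ± 0.68, edgeR adjusted p = 0.122). PBS mice 9 and 24 held the most S100b and Sox10 of all libraries. Sox10, the transcription factor of the glial lineage, was at 62.3 to 109 against 98.2 to 562 with a median of 119 (log2FC -1.19 ± 0.79, edgeR adjusted p = 0.41). Of 28 glial transcription factor and signalling genes, 0 were called (median -0.41). The myelin gene Mbp, expressed in enteric glia as in other glia, was at 35.7, 49, 39.6 and 105 against 182 to 792 with a median of 272 (log2FC -2.86 ± 0.76, edgeR adjusted p = 0.0169), with separate groups, and was the 1 called of 13 myelin genes, whose median was -1.67. It was not called without LPS mice 3 or 8, with log2FC of -2.79 to -2.69 and edgeR adjusted p of 0.057 to 0.0682. Gap junction and purinergic genes gave 0 calls of 17 (median -0.25), and of glial potassium and transport genes only Glul was called.

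Glul encodes glutamine synthetase, which turns glutamate into glutamine in astrocytes. It was at 199, 341, 142 and 227 against 30.2 to 68.9 with a median of 55.5 (log2FC 2.07 ± 0.53, edgeR adjusted p = 0.0135) and was not called without LPS mouse 8, with a log2FC of 1.80 and an edgeR adjusted p of 0.0589. Gpr37 overlapped at 0, 9.12, 5.36 and 13.1 against 6.5 to 17.4 with a median of 12.2 (log2FC -0.77 ± 1.19, edgeR adjusted p = 0.772). Its relative Gpr37l1 (log2FC -0.97 ± 0.69, edgeR adjusted p = 0.446) and Psap, which encodes prosaposin, a proposed ligand of both receptors (1109, 1308, 1295 and 1174 against 1024 to 1748 with a median of 1537, log2FC -0.29 ± 0.23, edgeR adjusted p = 0.498), were not called either.

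Genes used to describe reactive astrocytes were examined in 3 lists taken from work on the brain. Of the 13 genes shared by all reactive astrocytes 7 were called higher and none lower (median 2.58), among them Timp1, an inhibitor of matrix metalloproteinases (489, 378, 259.9 and 406 against 11.3 to 17.7 with a median of 16.1, log2FC 4.65 ± 0.54, edgeR adjusted p = 7.37e-07), and the hyaluronan receptor gene Cd44 (584, 625, 682 and 640.1 against 57.7 to 113 with a median of 87.1, log2FC 2.91 ± 0.42, edgeR adjusted p = 1.82e-05). Vim, another intermediate filament gene of that list, overlapped (log2FC -0.58 ± 0.26, edgeR adjusted p = 0.176). Of 13 genes of the A1 list, described after LPS, 6 were called higher (median 1.30), and of 12 of the A2 list, described after ischaemia, 4 (median 1.79), among them the carrier gene Slc10a6 (log2FC 2.11 ± 0.47, edgeR adjusted p = 0.00371). Several of their members, such as Gbp2, H2-T23, Psmb8, Lcn2, Cxcl10 and Cd14, also stand in the interferon, class I, acute-phase, chemokine and LPS-sensing lists above, so the lists do not count separate genes.

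Neuronal genes gave no call. Of 28 pan-neuronal genes and 23 genes of transmitter synthesis and peptides, 0 were called, with medians of 0.41 and 0.94. Vip, the neuropeptide of inhibitory motor neurons and secretomotor neurons, was at 819, 1629, 387 and 990.0 with LPS and 42.2 to 284 with a median of 135 with PBS, with separate groups but no call (log2FC 2.77 ± 1.25, edgeR adjusted p = 0.185). The summed neuronal markers overlapped between groups, with LPS mouse 8 the highest library. In the list of sodium, potassium and calcium channels, only Piezo2 of 23 was called, and it was lower (log2FC -3.08 ± 0.72, edgeR adjusted p = 0.00612). Kcna1, a potassium channel gene expressed in glia and neurons, was at 78.2, 91, 55.1 and 154 against 283 to 1497 with a median of 344, again separate and not called (log2FC -2.70 ± 1.01, edgeR adjusted p = 0.103).

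Several genes of the extracellular matrix fell. Of 30 collagen genes, 10 were called lower and none higher, against 2.99% lower among all genes, with a median of -2.06. The count was 4 without LPS mouse 3 or LPS mouse 8, 5 without LPS mouse 16 or PBS mouse 19 or 22, and 6 without PBS mouse 23 or 24. Col6a3 (chr1:90766860-90844001), a chain of the microfibrillar collagen VI, was at 1.28, 10.5, 17.4 and 10.9 with LPS and 71.5 to 315 with a median of 184 with PBS (log2FC -4.20 ± 1.04, edgeR adjusted p = 0.00987). Col14a1, which associates with collagen fibrils, was at 2.57, 2.46, 36.3 and 16.5 against 66.3 to 148 with a median of 122 (log2FC -3.06 ± 0.59, edgeR adjusted p = 0.000925). For both, every LPS library lay below every PBS library, with mouse 3 or 8 the lowest and mouse 13 the highest of the LPS libraries. The mitochondrial share of counts was 12.9% in LPS mouse 3, 16.9% in LPS mouse 8 and 19.0% in PBS mouse 9, the 3 libraries with the lowest fibroblast marker sums, and 1.66% to 8.26% in the other 7. Col8a2, a network-forming collagen, held 8 counts over the LPS libraries and 1195 over the PBS libraries (log2FC -5.65 ± 1.36, edgeR adjusted p = 0.0084). Col27a1, a fibrillar collagen (log2FC -3.26 ± 1.03, edgeR adjusted p = 0.0485), was not called without LPS mice 3, 8, 13 or 16 or PBS mice 9, 14, 19, 22, 23 or 24 (edgeR adjusted p = 0.0538 to 0.134). With the mitochondrial share as a covariate 11 collagens were called lower (edgeR).

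Fibrillar collagens were less firm. Col1a1 was at 95.2, 31.9, 261 and 142 against 152 to 1255 with a median of 828, with overlap at PBS mouse 9 (log2FC -2.45 ± 0.73, edgeR adjusted p = 0.0365), and was not called without LPS mice 3, 8 or 16 or PBS mice 19, 22, 23 or 24, with log2FC of -2.48 to -2.12 and edgeR adjusted p of 0.0542 to 0.123. Col1a2 was not called without LPS mice 3, 8 or 16 or PBS mice 19 or 22 (edgeR adjusted p = 0.0536 to 0.117), nor Col3a1 without LPS mice 3, 8 or 16 or PBS mice 19, 22, 23 or 24 (edgeR adjusted p = 0.0563 to 0.148). The basement membrane chains Col4a1 and Col4a2 were near 0 on the log2 scale (log2FC 0.46 and 0.49), with no call. Of 41 other matrix genes 4 were called lower (Ogn, Eln, Sparcl1 and Nid1) and 1 higher, Vcan, a large proteoglycan that rises in inflammation (28.5, 21, 76.6 and 73.4 against 6.64 to 19.2 with a median of 10.6, log2FC 2.12 ± 0.55, edgeR adjusted p = 0.0153; not called without LPS mouse 16, with a log2FC of 1.87 and an edgeR adjusted p of 0.0596). The list's median was -1.03. Eln was not called without LPS mice 3, 8 or 16 or PBS mouse 14 (edgeR adjusted p = 0.0525 to 0.102), and Nid1 not without LPS mice 3, 8 or 16 or PBS mice 9, 14 or 24 (edgeR adjusted p = 0.0548 to 0.146). Matrix proteases and their inhibitors had 4 of 29 called higher, among them Timp1, the lysosomal protease gene Ctsb (log2FC 0.94 ± 0.22, edgeR adjusted p = 0.00597) and the membrane-bound metalloproteinase gene Mmp14 (log2FC 1.04 ± 0.28, edgeR adjusted p = 0.0176; not called without LPS mouse 13, with a log2FC of 0.85 and an edgeR adjusted p of 0.0648).

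TGF-beta genes, which drive matrix production in many tissues, had 4 of 23 members called lower and none higher, with a median of -0.49. Tgfb3, a ligand, was at 2.05, 6.66, 14.2 and 10.4 with LPS and 31.9 to 107 with a median of 66.8 with PBS (log2FC -3.03 ± 0.65, edgeR adjusted p = 0.00296). Pmepa1, a target gene and feedback inhibitor, was at 31.8, 12.7, 18.9 and 23.1 against 84.1 to 308 with a median of 171 (log2FC -3.04 ± 0.49, edgeR adjusted p = 0.000103). Both had separate groups, with LPS below. Ccn2, a matricellular protein induced by TGF-beta, was called lower (log2FC -1.66 ± 0.50, edgeR adjusted p = 0.0392) but not without LPS mice 3, 8, 13 or 16 or PBS mice 9 or 24 (edgeR adjusted p = 0.0502 to 0.148), and Ltbp3, which binds latent TGF-beta (log2FC -1.21 ± 0.38, edgeR adjusted p = 0.0457), not without LPS mice 8, 13 or 16 or PBS mice 9, 14, 19, 22, 23 or 24 (edgeR adjusted p = 0.0573 to 0.144). In the Wnt, R-spondin and BMP list 2 of 26 were called lower. Rspo1, which strengthens Wnt signals to the epithelium, was at 11.3, 4.65, 16.3 and 12.4 against 50.4 to 235 with a median of 124 (log2FC -3.54 ± 0.78, edgeR adjusted p = 0.00452), and the secreted Wnt modulator gene Sfrp2 was at 0, 0, 1.11 and 1.48 against 10.3 to 138 with a median of 41.3 (log2FC -6.35 ± 1.81, edgeR adjusted p = 0.0267; not called without LPS mice 3, 8, 13 or 16 or PBS mouse 22, with log2FC of -7.27 to -5.82 and edgeR adjusted p of 0.0511 to 0.0873). The 1 called higher was Dkk3 (log2FC 1.50 ± 0.40, edgeR adjusted p = 0.0182), which was not called without LPS mouse 8 (edgeR adjusted p = 0.0757).

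The summed levels of markers of other cell types differed in how they moved beside the matrix genes. Mesothelial markers, of the cells that cover the gut wall, were lower in every LPS library than in any PBS library (173 to 419 against 567 to 2766 CPM), with 0 of 5 markers called and a median of -2.16. Fibroblast markers overlapped (696 to 10147 against 1967 to 13524), with 3 of 8 called lower, all of them collagens (Col1a1, Col1a2 and Col3a1), and none called without LPS mouse 3, 8 or 16 or PBS mouse 19 or 22. All 8 fibroblast markers had a negative log2 fold change, from -2.45 (Col1a1) to -0.29 (Dcn), with a median of -1.63. All 8 smooth muscle markers had a negative log2 fold change and 0 were called (median -1.18), while 3 of 18 smooth muscle contractile genes were called lower, among them Lmod1 (log2FC -2.58 ± 0.69, edgeR adjusted p = 0.018; not called without LPS mice 8 or 13, with log2FC of -2.53 to -2.39 and edgeR adjusted p of 0.0563 to 0.0584). The others were Cald1 (log2FC -1.25 ± 0.31, edgeR adjusted p = 0.00963) and Tpm1 (log2FC -1.79 ± 0.49, edgeR adjusted p = 0.0217), which overlapped and was not called without LPS mice 3, 13 or 16 or PBS mice 9 or 19 (edgeR adjusted p = 0.0539 to 0.0847). Epithelial markers had 0 of 8 called and a median of -1.97. LPS mouse 13 had the highest fibroblast marker sum of the LPS libraries, above PBS mice 9, 14, 23 and 24. Dcn alone gave 7052 of its 10147 CPM, against 981 to 6640 in the PBS libraries, so this rank rests largely on 1 gene. In LPS mouse 13, 5 of the 10 called collagens and all 4 called TGF-beta genes were below every PBS library. In the other 3 LPS libraries 9 to 10 collagens were. Col1a1, Col1a2 and Col3a1 lay within the PBS range in LPS mouse 13. Beyond these values, the part of these cell types in the lower matrix genes was not tested.

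The largest decreases among genes of moderate level named by rule were in Aqp7, Gdf10, Rxrg, Abca8a, Mrc2, Podn, Col6a3, Pamr1, Nkain4, Itpr1, Dpp4 and Fabp7. Nkain4, which encodes a protein that interacts with the sodium pump, was at 11.8, 4.19, 19.1 and 17.2 with LPS and 144 to 290.0 with a median of 186 with PBS (log2FC -3.94 ± 0.81, edgeR adjusted p = 0.00184). Itpr1, a calcium release channel of the endoplasmic reticulum, was at 4.36, 1.37, 5.18 and 4.23 against 37 to 75.9 with a median of 57.1 (log2FC -3.87 ± 0.85, edgeR adjusted p = 0.00354). Both kept their call when any 1 library was left out, as did Col6a3 and Fabp7. The other 8 did not. The secreted TGF-beta family member Gdf10 was at 0, 0.182, 9.25 and 0 against 11 to 361 with a median of 135 (log2FC -6.02 ± 1.71, edgeR adjusted p = 0.0263), not called without LPS mice 3, 8 or 16, with log2FC of -5.64 to -5.56 and edgeR adjusted p of 0.081 to 0.0897. Aqp7, a channel for water and glycerol, was at 0, 0.274, 3.33 and 0.635 against 22.1 to 156 with a median of 65.3 (log2FC -6.06 ± 1.62, edgeR adjusted p = 0.0177), not called without LPS mice 3, 8 or 16, with log2FC of -5.86 to -5.70 and edgeR adjusted p of 0.0602 to 0.0642. Rxrg, a retinoid X receptor expressed in glia, was at 0, 1.46, 3.14 and 0.635 against 16.7 to 104 with a median of 24.1 (log2FC -5.00 ± 1.43, edgeR adjusted p = 0.0285), not called without LPS mice 3, 8 or 16 or PBS mouse 9, with log2FC of -5.05 to -4.51 and edgeR adjusted p of 0.0552 to 0.0926. Podn was not called without LPS mice 3, 8 or 16 or PBS mice 22 or 23, with log2FC of -4.08 to -3.86 and edgeR adjusted p of 0.0513 to 0.106, and Pamr1 not without LPS mice 3, 8 or 16 or PBS mice 19 or 22, with log2FC of -4.48 to -3.55 and edgeR adjusted p of 0.0545 to 0.108. Mrc2, a collagen uptake receptor, was not called without LPS mice 3, 8, 13 or 16 or PBS mice 14, 19 or 22, with log2FC of -4.73 to -4.05 and edgeR adjusted p of 0.0556 to 0.119. Abca8a and Dpp4 were each called in only 1 of the 10 fits that left out a library: Abca8a was not called without LPS mice 3, 8, 13 or 16 or PBS mice 9, 14, 19, 22 or 24, with log2FC of -5.27 to -4.35 and edgeR adjusted p of 0.0525 to 0.12, and Dpp4 not without LPS mice 3, 8, 13 or 16 or PBS mice 14, 19, 22, 23 or 24, with log2FC of -4.42 to -3.41 and edgeR adjusted p of 0.0516 to 0.139.

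The same treatment had been given at an earlier time to other mice, labelled with the reporter alone. In small intestine 2 h after LPS or PBS, with 4 libraries each, 141 genes (1.08% of 13107 tested) were called higher and 3 lower. Of the 141, 56 were also called higher at 24 h, which is 39.7% of the 2 h list and 9.51% of the 589 genes called higher at 24 h among those tested at both times, where 4.51% of 13073 genes were called higher at 24 h. None was called lower at 24 h. For 130 of the 141 the log2 fold change was larger at 2 h, and the median was 3.25 at 2 h and 1.40 at 24 h. Of the 589 genes called higher at 24 h, 526 had the larger value at 24 h, with a median of 1.31 at 24 h and 0.26 at 2 h. Each list was chosen at 1 time, which favours a larger value at that time. The times were measured in separate tables and mice, and the difference between them was not tested.

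Genes differed in how the times compared. Lcn2 had a log2FC of 4.97 ± 1.03 at 2 h (edgeR adjusted p = 0.0191) beside 9.00 ± 1.12 at 24 h, and Sod2 of 1.23 ± 0.26 (edgeR adjusted p = 0.0226) beside 3.67 ± 0.34. These, with Mt1, Mt2, Sphk1, Sdc4, Il4ra, Ehd1 and the GTPase genes Ifi47, Irgm1 and Iigp1, were the 11 genes called at 2 h whose value was larger at 24 h, and all 11 were called at both times. Serpina3n was not called at 2 h (log2FC 0.20 ± 0.57, edgeR adjusted p = 1), nor was Irf7 (log2FC 0.30 ± 0.71, edgeR adjusted p = 1). The reverse held for several cytokine and feedback genes. Il6 had a log2FC of 6.66 ± 0.71 at 2 h (edgeR adjusted p = 5.38e-05) and 1.46 ± 1.26 at 24 h, Socs3 of 3.25 ± 0.57 (edgeR adjusted p = 0.00459) and 0.59 ± 0.59, and Irf1 of 3.22 ± 0.31 (edgeR adjusted p = 3.27e-05) and 0.44 ± 0.38. The log2FC of Cxcl1 was 9.33 ± 1.19 at 2 h and 3.35 ± 0.94 at 24 h. Fabp7 (log2FC -0.05 ± 0.32) and Col6a3 (log2FC 0.11 ± 0.48) were near 0 at 2 h and not called.

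**Figure D5:**
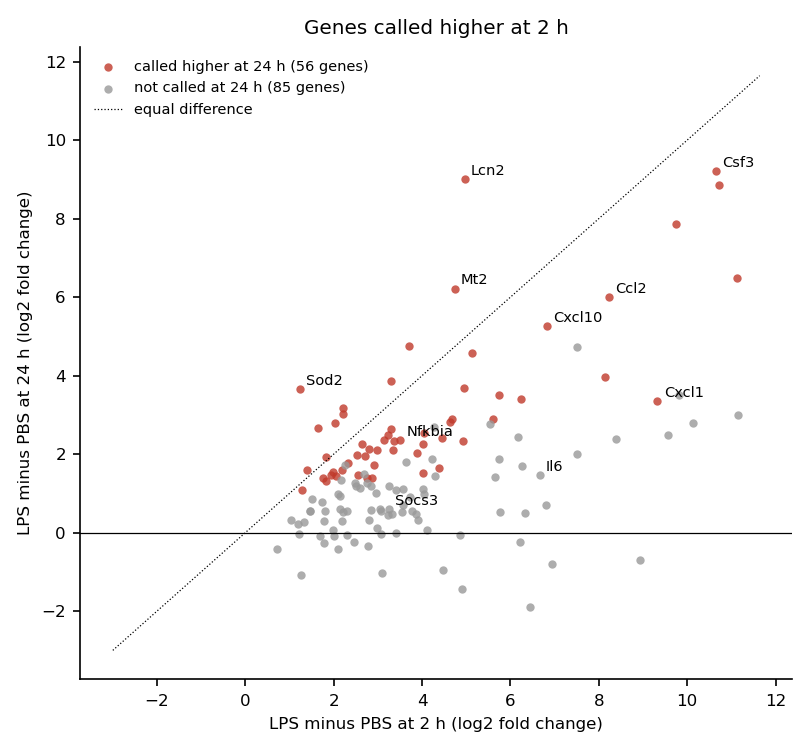
Log2 fold change at 2 h (x axis) against that at 24 h (y axis), both LPS over PBS in small intestine, for the 141 genes called higher at 2 h, with the line of equal values. The 56 genes also called higher at 24 h are in red and the other 85 in grey; 130 points lie below the line.

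The response was set beside that of Gpr37 knockout mice, in small intestine at 24 h (5 LPS and 4 PBS libraries), by a test of the difference between the 2 LPS effects. With edgeR 0 genes (0%) were called; 578 had an unadjusted p under 0.05, and DESeq2 called 59. The smallest adjusted p was that of Calhm6, a channel gene induced by interferon. It was at 69.3, 112, 15 and 53.3 in wild-type LPS libraries, with 3 counts over the 6 PBS libraries (a ratio of 1388, with a 95% counting interval of 474 to 6736), and its log2 fold change was 9.81 ± 1.11 in wild type and 2.58 ± 0.91 in knockout (edgeR adjusted p of the difference = 0.0855). H3f3b, which encodes the histone variant H3.3, was at 1449, 1432, 1381 and 1667 against 512 to 585 with a median of 532 in wild type (log2FC 1.45 ± 0.19) and had a log2FC of 0.34 ± 0.20 in knockout (edgeR adjusted p of the difference = 1). For Lcn2 the log2FC in wild type and knockout were 9.00 ± 1.12 and 6.38 ± 1.19, for Irf7 3.86 ± 0.34 and 3.08 ± 0.38, for Gfap 2.58 ± 0.63 and 0.63 ± 0.66, and for Fabp7 -3.84 ± 0.95 and -2.11 ± 0.84. Other genes had the larger value in knockout, among them Hp (5.14 ± 1.31 and 6.14 ± 1.61), Cxcl9 (5.62 ± 1.37 and 6.07 ± 1.66) and Lrg1 (2.58 ± 1.00 and 4.56 ± 1.24). Over all genes tested the median difference, wild type minus knockout, was -0.09, and 44.4% of genes had a positive value. A difference that misses the threshold does not show that the effects are alike.

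Colon of wild-type mice at 24 h (5 LPS and 4 PBS libraries) gave the same count. With edgeR 0 genes (0%) had an LPS effect called different from that in small intestine, 1126 had an unadjusted p under 0.05, and DESeq2 called 121. Lcn2 had a log2FC of 9.00 ± 1.12 in small intestine and 3.88 ± 1.05 in colon (edgeR adjusted p of the difference = 0.378), and Saa3 9.41 ± 1.61 and 4.53 ± 1.54 (edgeR adjusted p = 0.491). For the 2 regions in the same order, Mt2 had a log2FC of 6.22 ± 0.67 and 4.80 ± 0.74, Col6a3 -4.20 ± 1.04 and -4.68 ± 0.99, and Fabp7 -3.84 ± 0.95 and -2.67 ± 0.86. Most of the mice gave both regions, and the fit with the mouse as a block also called 0.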

How the data were processed

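RNA of enteric glial cells was extracted with a micro-scale column kit and made into libraries by Smart-seq2, per the labels' protocols; Smart-seq2 copies full-length cDNA by PCR without molecular identifiers, so counting intervals cover counting error only. How the cells were isolated is not given in the sources used here. The submitters' processing notes name Trim Galore 0.4.4, STAR 2.5.3, DESeq2 and the mouse build GRCm38; the counter, the annotation and the use of strand are not given in the sources used here. The authors deposited whole-number read counts per gene symbol, not normalized, in 1 table for the 24 h experiment (21076 symbols, 25 of them turned into dates and left unnamed) and 1 that holds the 2 h experiment. Genes with near-identical copies and overlapping or antisense genes are therefore uncertain.

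The 37 libraries of the 24 h experiment (8 groups) were fitted together, so that all groups share 1 estimate of the spread (29 residual degrees of freedom). Genes were filtered with filterByExpr, which left 14903, scaled by TMM and tested two-sided with edgeR 4.0.16 (glmQLFit, glmQLFTest) in R 4.3.3; the 2 h experiment (13107 genes) was fitted apart. P-values were adjusted by Benjamini-Hochberg over all genes tested, with a threshold of 0.05, and the SE is the fold change divided by the square root of its F. CPM values are TMM-scaled, and a group at 0 was given a floor of 3 counts per library. The model was tested on simulated counts for this comparison (14549 genes, 50 changed for each size and direction): it recovered 46% of genes changed 4-fold in either direction, 14% of those 2-fold higher and 10% of those 2-fold lower, and called 3 of 14349 unchanged genes. Between replicates, chi-square per degree of freedom was 29.4 to 249.6 over 21 pairs, no 2 libraries were identical, and the labelled sex matched in 10 of 10 libraries.

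The comparison and the 62 gene lists (16 of cell type markers) were chosen with earlier results of these data known. Genes were named by rule: the 12 largest increases and decreases among called genes with a mean log2 CPM (prior count 2) of at least 3 and separate groups, the 10 smallest p, the called members of each list (at most 4 in each direction, and any marker), and Gpr37, Gpr37l1, Psap and Gfap; 1 other gene that the rule names is not reported here. Other genes named without a call, the set of promoters with a response element, Cxcl13 beside the chemokines and the families in the last section were chosen after their values were seen. Promoter windows and coordinates came from RefSeq tables of GRCm38.p6. The Wald test of DESeq2 1.42.0 was an alternative, as were RLE size factors, no filter, covariates for sex, mitochondrial share and mouse number (10 and below), the replicate block, mice numbered 11 and above, the 2 groups alone and each library left out; counts of list members under these were added after the data were seen. Figures were drawn with matplotlib 3.10.9 in Python 3.11.15.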

Additional observations from a re-analysis of the deposited data

Results flagged for a closer look

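Among the genes followed by library, the summed cell type markers, the total counts and the mitochondrial shares, 184 groups of 4 or 6 libraries were examined for 1 library far from the others, by its gap to the nearest library over the range of the group (Dixon's 95% value), and 19 had one; chance gives about 1 in 20. PBS mouse 14 accounted for 5. It held 217.9 CPM of Cxcl10 against 8.01 to 20.0 in the other PBS mice, 366.5 of the interferon regulator gene Irf1, 2.59 of Csf3, 1.07 of Acod1, and 231.4 on the monocyte marker sum. For Cxcl10, Csf3 and Acod1 it still lay below every LPS library.

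LPS mouse 16 held 4.97 CPM of S100a8 against 302 to 423 in the other LPS mice and 21.8 on the neutrophil marker sum, and the highest B2m level, 7254 CPM. LPS mouse 8 was the lowest of its group for Lcn2 (2245 CPM), Itpr1 (1.37), Mrc2 (0.0912) and the endothelial marker sum (274.6). LPS mouse 13 held 9.25 CPM of Gdf10, against 0 to 0.182 in the other LPS mice, and LPS mouse 3 the 1 mast cell marker count behind a sum of 0.257.

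PBS mouse 9 was the lowest PBS library for Lcn2 (0.721 CPM), Cxcl9 (0) and the fibroblast marker sum (1966.6), and PBS mouse 24 was lowest for Samhd1 (13.7) and highest for Calhm6 (0.375). The calls of Lcn2, Cxcl9, Cxcl10, Itpr1, Samhd1, Calhm6, Csf3, S100a8 and Acod1 held when any 1 of the 10 libraries was left out.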

How the results depend on the processing

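The count of genes called between LPS and PBS was 1069 as reported, 1875 with DESeq2, 1704 with the 2 groups alone and 641 to 1057 with 1 library left out, lowest without LPS mice 3 (641) and 8 (685). It was 941 to 1485 under RLE size factors, no filter, covariates for sex, mouse number or mitochondrial share, and mice numbered 11 and above. Numbered 10 and below were LPS mice 3 and 8 and PBS mouse 9, the 3 libraries with the highest mitochondrial shares. This division falls unevenly on the LPS and PBS mice, and the labels do not say what it stands for. The replicate block gave 749 (471 higher, 278 lower). Replicate numbers did not pair the mice: same-numbered libraries had a mean correlation of -0.059 (-0.130 to -0.003) in their deviations from the group means, other pairs 0.012, and 0 of 4 LPS libraries correlated best with their own number. Of 268 called list and family genes followed, 163 kept their call whichever library was left out, 160 under these and the 9 other settings, and none changed direction.

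For the difference from knockout, 0 genes became 59 with DESeq2, 1 with sex as a covariate and 0 to 2 with 1 library left out (1 without PBS mouse 24, 2 without LPS mouse 13), and for that from colon 121 with DESeq2, 7 for mice numbered 11 and above and 0 to 1 with 1 library left out (1 without either of the same mice). The replicate block called 0 in both. At 2 h the 144 genes became 261 with DESeq2 and 153 with the replicate block, and the share also called at 24 h was 39.7%, or 41.9% with DESeq2 at both times. The difference in mitochondrial share ran from -0.360 (without LPS mouse 8) to 4.60 with 1 library left out, and was -1.08 for mice numbered 11 and above. The cause of these shifts was not tested. Depth limits the low genes: in LPS mouse 3, the shallowest, a count of 0 allows up to 0.770 CPM. In simulated data most 2-fold changes were missed, so the uncalled genes cannot be read as unchanged.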

Other observations

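Several gene families outside the lists above held called genes; they were chosen after their values were seen, so their counts are descriptions. All 77 ribosomal protein genes tested had a positive log2 fold change, with a median of 0.66, and 27 were called higher, none lower (edgeR). Rplp0, of the ribosomal stalk, had a log2FC of 1.26 ± 0.26 and Rps2 of 1.24 ± 0.27; these genes have many pseudogenes, so single values are uncertain. Of 52 translation initiation factor and regulator genes 14 were called higher and none lower (median 0.50), among them Eif4ebp1, a repressor of cap-dependent translation, at 106, 128, 126 and 127 CPM with LPS and 42.2 to 77.7 with a median of 52.6 with PBS (log2FC 1.16 ± 0.25, edgeR adjusted p = 0.00317). Host genes of small nucleolar RNAs, which guide the modification of ribosomal RNA, had 6 of 17 called higher. The largest was Snhg1, at 103, 105, 76.6 and 158 against 7.06 to 14.9 with a median of 10.2, with separate groups (log2FC 3.38 ± 0.38, edgeR adjusted p = 4.5e-07).

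The cold-inducible RNA-binding protein genes rose: Cirbp was at 665, 656, 476 and 707 with LPS and 67.6 to 137 with a median of 84.8 with PBS (log2FC 2.77 ± 0.44, edgeR adjusted p = 8.2e-05), and Rbm3 at 268, 230.3, 248 and 285 against 17.5 to 45.1 with a median of 27 (log2FC 3.17 ± 0.45, edgeR adjusted p = 1.75e-05). Neither was called at 2 h (log2FC 0.17 ± 0.37 and 0.29 ± 0.61), and the body temperature of the mice is not given in the labels. Heat-shock chaperone and co-chaperone genes lay on the other side, with 4 of 24 called lower and none higher (median -0.42). Hsph1, a nucleotide exchange factor of Hsp70, was at 0.257, 73.4, 24.8 and 14.9 against 112 to 308 with a median of 181 (log2FC -2.83 ± 0.69, edgeR adjusted p = 0.00885). In mitochondrial fatty acid, ketone and propionate oxidation 5 of 26 genes were called lower and 1 higher. Oxct1, the enzyme that lets cells outside the liver use ketone bodies, was at 155, 104, 84.7 and 63.2 against 226 to 336 with a median of 298 (log2FC -1.50 ± 0.27, edgeR adjusted p = 0.000356). The immune checkpoint genes Cd274 (PD-L1, 49, 71.8, 23.5 and 36.6 against 1.07 to 7.49 with a median of 2.47, log2FC 3.88 ± 0.71, edgeR adjusted p = 0.000456) and Lag3 (72.1, 81.6, 40 and 84.3 against 2.22 to 7.33 with a median of 4.25, log2FC 3.95 ± 0.60, edgeR adjusted p = 4.39e-05) were called higher as well, with separate groups.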
